A study of Homo sapiens with 21 samples.

Results

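Described here are 50 genes that act in mitosis and at the kinetochore, out of 19683 gene symbols measured in 21 libraries. The cells are HepG2/C3A, an established line grown out of a human liver tumour. The genes were chosen by symbol from textbook knowledge of chromosome segregation, with earlier results of these data known, and all 50 were in the table. Expression was measured by TempO-Seq, which joins 2 gene-specific probes on their target RNA and counts the joined products by sequencing, from 100 ng of total RNA per library. All libraries are of wild-type HepG2/C3A in the same serum-containing medium, with no added allele or drug. The control is a flat culture on plastic (2D monolayer), and the other 6 groups are 3D spheroids that were pressed to aggregate in ultra-low attachment plates and then held in a rotating ClinoReactor until Day 3, 7, 10, 14, 21 or 28. Each of the 7 groups has 3 libraries. The labels give no day for the monolayer, so in comparisons with it culture age and culture format cannot be told apart. Replicates are labelled biological, with no word on separate cultures or reactors, so every p-value here is set by the spread among these libraries, which may be technical. HepG2/C3A is a transformed line and stands in for normal hepatocytes only in part, and it carries on dividing where adult hepatocytes rest.

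A cell enters mitosis when cyclin B activates the kinase CDK1. Condensin then compacts the chromosomes, kinesins and spindle factors build the spindle, and kinetochores tie each centromere to microtubules. The spindle assembly checkpoint holds the anaphase-promoting complex in check until every kinetochore is attached, after which separase cuts cohesin and the cytokinesis machinery divides the cell. The RNAs of most of these proteins rise late in the cell cycle and are scarce in resting cells, because the DREAM and MuvB complexes act on their promoters at a short element named the cell cycle homology region (CHR), with the factors FOXM1 and MYBL2 as activators and with the CCAAT-binding factor NF-Y nearby.

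Each library held between 18760232 and 43443262 counts (median 31997292). Levels below are CPM, counts scaled to TMM-corrected library sizes, and since each level depends on its probes, levels are compared between libraries and never between genes. Hepatocyte markers (ALB, AFP, APOA1, APOB, TTR and HNF4A) summed to 8679 to 9395 CPM in the monolayer and 31554 to 63486 CPM in the spheroids. The 5 stromal markers summed to at most 3.29 CPM in any library, with DCN and COL1A2 at 0 in all of them, and the 5 endothelial markers to at most 3.61 CPM. The leukocyte list reached 28.2 to 69.6 CPM, nearly all of it CD68, with PTPRC at 0 in every library. A library of Day 14 and a library of Day 21 stood apart within their groups for the mitosis genes. Day 14 replicate 3 was the lowest of its group in 46 of 48 tested members, and Day 21 replicate 1 was the highest of its group in 42 of 48.

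Promoter windows are shown for the 3 members that differed most and the 3 that differed least between Day 3 and the monolayer, among those with a promoter at hand, and for CCNB2 and CDC25C, textbook CHR genes. Each window holds 250 bases before and 50 after the gene's start, 5′ to 3′ along the gene, from RefSeq on GRCh38.p14. Capitals mark the CHR letters TTTGAA or TTCGAA, the letters CCAAT, and the E2F core TTCCCGC or TTGGCGC, on either strand, and an E2F match can overlap a CCAAT match.
CCNB2: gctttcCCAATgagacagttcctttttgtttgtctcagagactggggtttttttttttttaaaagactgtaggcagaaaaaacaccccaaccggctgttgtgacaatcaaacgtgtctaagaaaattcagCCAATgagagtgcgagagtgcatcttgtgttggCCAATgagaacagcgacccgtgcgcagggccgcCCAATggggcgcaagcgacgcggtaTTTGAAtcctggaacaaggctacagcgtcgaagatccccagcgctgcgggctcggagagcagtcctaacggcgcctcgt
ASPM: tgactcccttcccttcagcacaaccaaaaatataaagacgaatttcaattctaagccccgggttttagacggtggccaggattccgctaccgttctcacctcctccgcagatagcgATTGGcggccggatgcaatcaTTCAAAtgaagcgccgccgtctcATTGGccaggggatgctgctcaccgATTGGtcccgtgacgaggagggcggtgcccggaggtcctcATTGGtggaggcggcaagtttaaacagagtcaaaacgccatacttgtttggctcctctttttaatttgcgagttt
KIF4A: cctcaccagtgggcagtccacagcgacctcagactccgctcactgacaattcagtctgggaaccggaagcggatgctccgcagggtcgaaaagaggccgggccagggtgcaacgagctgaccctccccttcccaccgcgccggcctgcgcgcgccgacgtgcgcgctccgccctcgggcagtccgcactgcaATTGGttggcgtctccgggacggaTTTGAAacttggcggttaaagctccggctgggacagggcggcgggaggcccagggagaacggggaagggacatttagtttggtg
KIF18B: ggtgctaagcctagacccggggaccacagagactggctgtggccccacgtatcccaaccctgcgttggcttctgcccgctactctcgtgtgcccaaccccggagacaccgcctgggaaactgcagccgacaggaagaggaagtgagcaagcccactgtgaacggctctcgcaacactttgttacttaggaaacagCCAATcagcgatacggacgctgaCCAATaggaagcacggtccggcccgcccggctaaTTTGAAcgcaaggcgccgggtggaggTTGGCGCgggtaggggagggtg
ECT2: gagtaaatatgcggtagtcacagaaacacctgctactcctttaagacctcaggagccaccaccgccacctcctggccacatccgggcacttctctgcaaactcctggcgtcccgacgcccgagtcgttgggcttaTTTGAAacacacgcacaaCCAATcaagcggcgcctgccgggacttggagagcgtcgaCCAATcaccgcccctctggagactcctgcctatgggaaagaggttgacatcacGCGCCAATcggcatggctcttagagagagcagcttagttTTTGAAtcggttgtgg
SMC4: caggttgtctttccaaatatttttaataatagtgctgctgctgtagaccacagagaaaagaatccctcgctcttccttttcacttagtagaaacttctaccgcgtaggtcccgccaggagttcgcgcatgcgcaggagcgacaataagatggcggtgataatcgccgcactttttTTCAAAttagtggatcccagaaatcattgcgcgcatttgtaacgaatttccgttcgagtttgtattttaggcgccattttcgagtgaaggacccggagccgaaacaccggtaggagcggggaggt
PTTG1: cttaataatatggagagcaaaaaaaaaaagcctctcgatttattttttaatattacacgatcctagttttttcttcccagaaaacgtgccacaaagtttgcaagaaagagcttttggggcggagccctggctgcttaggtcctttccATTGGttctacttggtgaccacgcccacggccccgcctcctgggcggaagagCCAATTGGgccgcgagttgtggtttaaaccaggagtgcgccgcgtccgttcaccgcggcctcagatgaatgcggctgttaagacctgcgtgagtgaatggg
CDC25C: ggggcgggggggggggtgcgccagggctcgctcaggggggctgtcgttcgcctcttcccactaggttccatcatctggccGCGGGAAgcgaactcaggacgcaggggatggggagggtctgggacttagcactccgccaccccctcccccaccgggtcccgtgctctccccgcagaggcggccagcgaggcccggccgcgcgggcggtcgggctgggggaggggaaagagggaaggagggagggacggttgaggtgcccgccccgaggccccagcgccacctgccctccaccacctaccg
These windows lie at chr15:59104896-59105195 (plus strand) for CCNB2, chr1:197146620-197146919 (minus strand) for ASPM, chrX:70289854-70290153 (plus strand) for KIF4A, chr17:44947724-44948023 (minus strand) for KIF18B, chr3:172750476-172750775 (plus strand) for ECT2, chr3:160399400-160399699 (plus strand) for SMC4, chr5:160421605-160421904 (plus strand) for PTTG1 and chr5:138338306-138338605 (minus strand) for CDC25C. The CHR letters stood in 33 of the 43 members with a promoter in the table (76.7%), in 11.4% of the 9932 tested genes with one and in 16.6% of all 27305 windows. CCAAT stood in 32 of 43 members (74.4%), in 37.1% of tested genes and in 35.7% of all windows. Both stood together in 25 of 43 members (58.1%), against 4.93% of tested genes and 6.58% of all windows. The E2F core was in 9 of 43 members (20.9%), in 15.0% of tested genes and in 9.33% of all windows. Of the 43 CHR matches 31 lay within 50 bases of the start, with a median position of -28, and the 69 CCAAT matches had a median position of -74. Of the 3 members shown that differed least at Day 3, the window of ECT2 holds 2 CHR matches and that of SMC4 holds 1, while that of PTTG1 holds CCAAT alone. The CDC25C window holds neither the CHR letters nor CCAAT, which says only that these letters are not in this stretch. A match is a description of letters and not a measured binding site.

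The 50 genes together made up 0.0162% ± 0.00162 (SD, n = 3) of the monolayer counts and 0.372% ± 0.00196 of the counts at Day 3. The share was 0.307% ± 0.0153 at Day 7 and reached 0.434% ± 0.0161 at Day 10. It then stood at 0.0921% ± 0.0218 at Day 14, 0.103% ± 0.0199 at Day 21 and 0.0780% ± 0.00313 at Day 28. No library of Days 3 to 10 fell below 0.295%, no library of Days 14 to 28 rose above 0.126%, and the highest monolayer library was at 0.0181%, so the 3 blocks of libraries did not overlap. In RNA from whole cultures, fewer dividing cells and less of these RNAs per dividing cell cannot be told apart.

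**Figure D1:**
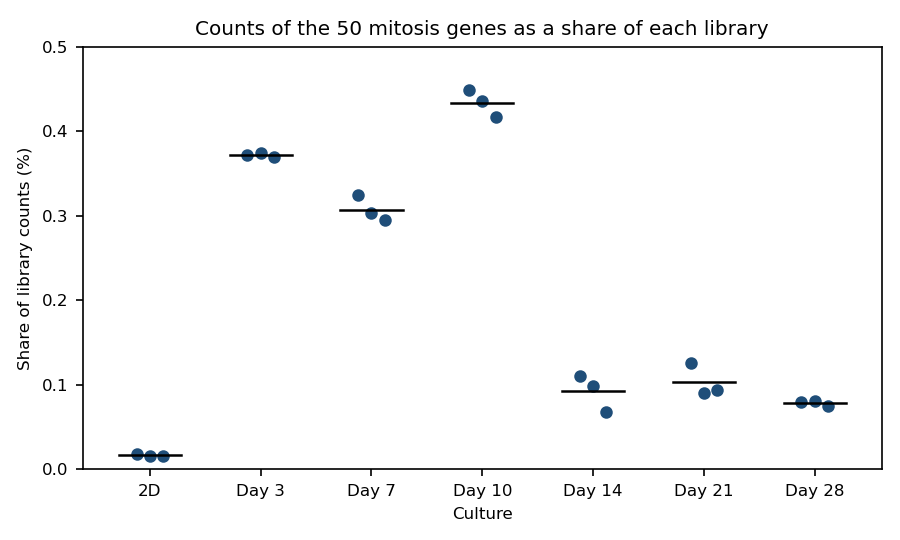
Share of each library's counts (percent, y axis) that fell on the 50 mitosis genes, by culture (x axis). Points are libraries and bars are means of n = 3; the monolayer lies at 0.0162%, Days 3 to 10 between 0.295% and 0.449%, and Days 14 to 28 between 0.0678% and 0.126%.

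Of the 50 members 48 had enough counts to be tested. CDC20, the activator of the anaphase-promoting complex, had 5 counts in all, in 1 Day 10 library. NDC80, the microtubule-binding core of the kinetochore, had at most 0.135 CPM in any library and was at 0 in the monolayer and at Day 14. Of the 48, 37 reached the filter's level in all 3 monolayer libraries, and the other 11 (FOXM1, PLK1, KIF4A, KIF18B, CDCA8, BUB1B, UBE2C, ESPL1, CENPA, CENPM and ASPM) passed through their spheroid libraries, so they had to differ from the monolayer to be tested at all. A gene was called at an edgeR quasi-likelihood p, Benjamini-Hochberg adjusted over the 12345 genes tested, under 0.05. At Day 3, 48 of 48 tested members were higher than in the monolayer and none was lower, against a background of 40.1% of tested genes called higher and 37.8% called lower. Those 48 include all 37 that reached the filter's level in the monolayer. Over all 48 the median log2 fold change was 4.56, and over all genes tested it was 0.06. Counts and medians of members against the monolayer, here and below, include the 11 that passed through their spheroid libraries. The members' libraries did not overlap between Day 3 and the monolayer in 48 of 48, which was so for 41.4% of tested genes in that direction.

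MKI67 encodes the surfactant-like coat protein of mitotic chromosomes that is read as the Ki-67 proliferation marker. Its level was 4.79, 2.82 and 2.31 CPM in the monolayer, 155, 165 and 157 CPM at Day 3, 137, 132 and 132 CPM at Day 10, 33.3, 31.7 and 22.1 CPM at Day 14, and 22.4, 25.9 and 27.9 CPM at Day 28. It stood at 123, 118 and 112 CPM at Day 7 and at 35.9, 24.3 and 30.8 CPM at Day 21. Every Day 3 library lay above every library of any other group, and every spheroid library lay above the monolayer. MKI67 was 5.63 ± 0.21 (SE) higher at Day 3 than in the monolayer on the log2 scale (adjusted p = 4.53e-14), a 49.6-fold difference. TOP2A, the topoisomerase that untangles sister chromatids, was at 2.58, 2.19 and 1.95 CPM in the monolayer, 106, 105 and 114 CPM at Day 3, 124, 116 and 112 CPM at Day 10 and 21.2, 19.8 and 17.3 CPM at Day 28. At Days 7, 14 and 21 it was at 91.5, 89.5 and 96.4 CPM, at 32.6, 28.3 and 17.4 CPM and at 36.8, 24.9 and 28.7 CPM. Its Day 28 libraries were all lower than those of Days 3 to 10 and all higher than the monolayer, by 3.13 ± 0.22 (adjusted p = 4.23e-10).

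Among the mitotic kinases, cyclins and their activators, 8 of 8 were higher at Day 3, with a median log2 fold change of 4.53. CDK1, the kinase that drives mitotic entry, was at 24.4, 19.3 and 22.0 CPM in the monolayer, 446, 461 and 473 CPM at Day 3, and 622, 619 and 593 CPM at Day 10. It was at 449.7, 405 and 386 CPM at Day 7, 144, 128 and 81.6 CPM at Day 14, 165, 122 and 116 CPM at Day 21 and 89.7, 83.0 and 73.1 CPM at Day 28. The 3 Day 10 libraries were the highest of all 21, and the late libraries still lay above the monolayer, with a 3.76-fold difference at Day 28. CCNB1, the cyclin B1 partner of CDK1, was at 5.47, 4.12 and 3.38 CPM in the monolayer, 94.1, 96.1 and 93.7 CPM at Day 3, 137, 132 and 113 CPM at Day 10 and 23.6, 20.7 and 22.4 CPM at Day 28. Its level was 84.9, 79.6 and 79.1 CPM at Day 7, 32.3, 33.0 and 23.0 CPM at Day 14 and 37.3, 25.9 and 26.3 CPM at Day 21. CCNB1 was 4.47 ± 0.17 higher at Day 3 (adjusted p = 6.42e-16), and all its spheroid libraries lay above the monolayer. CCNA2, cyclin A2, which acts in S phase and up to mitotic entry, was 5.30 ± 0.27 higher at Day 3 and fell from 322, 297 and 272 CPM at Day 10 to 57.1, 48.0 and 29.3 CPM at Day 14. PLK1, the polo-like kinase of spindle poles and kinetochores, rose from 0.339, 0.305 and 0.228 CPM in the monolayer to 16.1, 15.0 and 13.8 CPM at Day 3. Its difference of 3.69 ± 0.32 at Day 28 was the third largest there. PLK1 did not reach the filter's level in any monolayer library, so it had to differ from the monolayer to be tested.

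CDC25C, the phosphatase that switches CDK1 on, lost the least of its Day 3 level. It was at 0.381, 0.356 and 0.423 CPM in the monolayer, 5.19, 4.70 and 6.20 CPM at Day 3, 5.63, 6.86 and 6.20 CPM at Day 10 and 2.77, 3.95 and 2.17 CPM at Day 28. Its libraries at Days 3 and 28 did not overlap, and the fall was 0.84 on the log2 scale (SE 0.23, adjusted p = 0.00184). FOXM1, the transcription factor of late cell cycle genes, was among the least counted members, with 1 count in the monolayer and 53 at Day 3. The ratio of these counts per library size was 51.0, with a 95% exact interval of 8.76 to 2051 that covers counting error only. Its levels were 0.373, 0.796 and 0.532 CPM at Day 3, 0.290, 0.136 and 0.226 CPM at Day 10 and 0.180, 0.245 and 0.133 CPM at Day 14. The last 2 groups overlapped, and FOXM1 was the only tested member not called between Days 10 and 14, at -0.19 ± 0.73 (adjusted p = 0.853). The sign of that difference turned without Day 10 replicate 1 or Day 14 replicate 3.

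The 8 kinesin motors were all higher at Day 3, with a median of 4.73. KIF11, the motor that pushes spindle poles apart, was at 12.4, 8.68 and 8.13 CPM in the monolayer, 286, 292 and 292 CPM at Day 3, 341, 352 and 347 CPM at Day 10, 88.9, 77.6 and 50.1 CPM at Day 14 and 56.0, 53.8 and 47.0 CPM at Day 28. At Day 7 it was at 274, 237 and 237 CPM and at Day 21 at 97.3, 76.5 and 68.8 CPM. The monolayer, Day 3, Day 10 and Day 28 libraries of KIF11 formed 4 ranges with no overlap. KIF4A, a chromosome-bound motor of the central spindle, had 1 count in the monolayer and 109 at Day 3, a ratio of 105 with an interval of 18.4 to 4178. KIF18B, a motor that trims astral microtubules, was at 0, 0.153 and 0.0325 CPM in the monolayer and 5.19, 4.05 and 4.78 CPM at Day 3. With ASPM these were the 3 largest fitted differences at Day 3, 6.29 ± 0.90 for KIF4A and 5.92 ± 0.58 for KIF18B, and all 3 rest on few monolayer counts. KIF4B, a near copy of KIF4A, has its own entry, so counts of the pair may have been split between them.

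In the chromosomal passenger complex, which corrects faulty attachments and directs cytokinesis, 4 of 4 members were higher at Day 3, by 2.52 to 5.36 on the log2 scale. AURKB, its kinase, was at 1.82, 1.53 and 1.11 CPM in the monolayer, 62.5, 62.2 and 55.9 CPM at Day 3, 85.8, 86.6 and 71.5 CPM at Day 10, 16.1, 14.9 and 8.54 CPM at Day 14 and 10.6, 9.44 and 9.20 CPM at Day 28. AURKB was at 47.5, 50.7 and 47.6 CPM at Day 7 and at 20.3, 12.1 and 11.3 CPM at Day 21. INCENP, its scaffold, was at 3.22, 3.79 and 3.22 CPM in the monolayer, 17.6, 19.4 and 22.0 CPM at Day 3 and 5.76, 5.09 and 5.63 CPM at Day 28. The groups of both genes stood in the same order, the monolayer lowest and Day 28 between it and Day 3, with no overlap. The difference at Day 3 was 5.36 ± 0.27 for AURKB (adjusted p = 4.12e-12) and 2.52 ± 0.18 for INCENP (adjusted p = 1.83e-14). CDCA8, borealin, fell by 1.22 (SE 0.28) from Day 3 to Day 28, the second smallest fall among the members.

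The 4 spindle assembly checkpoint genes lay close together at Day 3, between 4.41 and 4.77 on the log2 scale. BUB1, the kinase that recruits the checkpoint to kinetochores, was at 2.71, 1.71 and 2.47 CPM in the monolayer, 57.8, 59.8 and 51.5 CPM at Day 3, 65.8, 66.7 and 68.9 CPM at Day 10, 18.3, 16.1 and 12.4 CPM at Day 14 and 15.6, 15.7 and 14.5 CPM at Day 28. At Day 7 it was at 46.0, 48.6 and 41.1 CPM and at Day 21 at 20.4, 12.7 and 19.0 CPM. The Day 14 and Day 28 libraries of BUB1 overlapped each other and lay above the monolayer, by 2.77 ± 0.18 at Day 28.

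Among the genes of anaphase and sister separation, 3 of 4 could be tested and were higher at Day 3. PTTG1, securin, the inhibitor of separase, was at 5.08, 4.76 and 4.65 CPM in the monolayer, 24.2, 22.3 and 20.9 CPM at Day 3, 20.5, 21.1 and 14.9 CPM at Day 7 and 28.7, 29.9 and 22.2 CPM at Day 10. It was at 7.15, 6.01 and 3.00 CPM at Day 14, 9.61, 6.57 and 5.49 CPM at Day 21 and 6.46, 3.86 and 5.20 CPM at Day 28. The Day 14 and Day 28 libraries overlapped the monolayer, and those of Day 21 lay just above it. PTTG1 was 2.22 ± 0.26 higher at Day 3 (adjusted p = 1.83e-07), and was not called at Day 14 (0.17 ± 0.27), Day 21 (0.59 ± 0.26, adjusted p = 0.0522) or Day 28 (0.07 ± 0.28). At Day 21 PTTG1 was called with the replicate number as a block (adjusted p = 0.0064), with library size scaling, with no filter, with only the groups compared and without Day 21 replicate 3 (adjusted p = 6.16e-05 to 0.0167 over these 5). At Day 14 it was called without Day 14 replicate 3 (adjusted p = 0.04997), and its sign turned without Day 14 replicate 1. The sign at Day 28 turned without Day 28 replicate 1. PTTG2 is a near copy with its own entry, so the value of PTTG1 is uncertain in that respect.

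At the kinetochore and centromere, 7 of 8 members could be tested and were higher at Day 3, with a median of 4.93. SPC25 and SPC24 form the inner end of the NDC80 complex, which binds the centromere side. SPC25 was at 1.78, 1.37 and 1.01 CPM in the monolayer, 67.2, 74.3 and 71.1 CPM at Day 3, 93.2, 93.1 and 71.0 CPM at Day 10, 15.6, 12.3 and 7.71 CPM at Day 14 and 7.90, 7.89 and 5.67 CPM at Day 28. It was at 49.1, 49.1 and 49.6 CPM at Day 7 and at 17.0, 11.2 and 10.4 CPM at Day 21. Day 3 and Day 10 overlapped for SPC25, and both lay far above every library of Days 14 to 28. It fell most of all members from Day 10 to Day 14, by 2.85 (SE 0.22, adjusted p = 1.17e-08), a level 7.19-fold lower. SPC24 fell most from Day 3 to Day 28, from 77.3, 73.9 and 80.4 CPM to 7.58, 7.31 and 7.10 CPM, a 10.5-fold lower level by the fit. CENPA, the histone that marks the centromere, was counted 10 times in the monolayer and was 3.50 ± 0.61 higher at Day 3. It was not called at Day 14 (1.28 ± 0.69, adjusted p = 0.0952) or Day 28 (1.40 ± 0.70, adjusted p = 0.0729), and it was called at Day 14 without 2D replicate 1 (adjusted p = 0.0408) and at Day 28 with library size scaling (adjusted p = 0.0384) or without 2D replicate 1, Day 28 replicate 1 or Day 28 replicate 2.

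All 5 spindle assembly factors were higher at Day 3, with a median of 4.81. HMMR, a microtubule-associated receptor for hyaluronan, was at 10.9, 6.85 and 7.12 CPM in the monolayer, 244, 241 and 249 CPM at Day 3, 410.0, 404 and 373 CPM at Day 10, 99.4, 93.1 and 58.9 CPM at Day 14 and 96.1, 86.9 and 81.0 CPM at Day 28. HMMR was at 256, 240.5 and 245 CPM at Day 7 and at 115, 98.0 and 90.9 CPM at Day 21. Its mean at Day 10 was 162% of that at Day 3, the highest such share among the 48 tested members, and its Day 14 and Day 28 libraries overlapped. ASPM, a spindle pole protein, had 2 counts in the monolayer and 212 at Day 3, a ratio of 102 with an interval of 27.9 to 847. Its fitted difference was 6.38 ± 0.68 at Day 3 and 4.45 ± 0.79 at Day 28, the largest in both comparisons. ASPM did not reach the filter's level in any monolayer library, so this rank rests on few monolayer counts.

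The 3 cytokinesis genes were higher at Day 3, but by Day 28 ECT2 was lower than the monolayer while the other 2 were higher. ANLN, the anillin scaffold of the contractile ring, was at 6.78, 6.39 and 5.92 CPM in the monolayer, 108, 104 and 101 CPM at Day 3, 162, 152 and 151 CPM at Day 10, 33.6, 26.9 and 17.8 CPM at Day 14 and 22.5, 19.4 and 18.2 CPM at Day 28. It was at 102, 89.9 and 97.7 CPM at Day 7 and at 34.0, 21.0 and 23.8 CPM at Day 21. All spheroid libraries of ANLN lay above the monolayer, and it was 1.65 ± 0.21 higher at Day 28 (adjusted p = 2.46e-06). ECT2, the exchange factor that activates RhoA at the division plane, was at 6.74, 5.78 and 5.76 CPM in the monolayer, 7.80, 8.92 and 8.26 CPM at Day 3, 6.35, 7.16 and 4.70 CPM at Day 7 and 7.20, 6.94 and 8.20 CPM at Day 10. Its Day 7 libraries overlapped the monolayer on both sides. In the late spheroids ECT2 was at 1.65, 1.78 and 1.00 CPM at Day 14, 2.84, 2.07 and 2.27 CPM at Day 21 and 1.12, 1.84 and 1.47 CPM at Day 28, all below the monolayer. Its difference was 0.45 ± 0.19 at Day 3 (adjusted p = 0.0295), -2.04 ± 0.22 at Day 14 (adjusted p = 3.84e-10), -1.34 ± 0.20 at Day 21 (adjusted p = 5.22e-07) and -2.00 ± 0.22 at Day 28 (adjusted p = 9.16e-10). The Day 3 call was lost without 2D replicate 2, 2D replicate 3, Day 3 replicate 2 or Day 3 replicate 3 (adjusted p = 0.0552 to 0.0955), while the late calls held under every alternative. At Day 10 ECT2 was not called (0.29 ± 0.19, adjusted p = 0.158), and it was called with library size scaling (adjusted p = 0.0423).

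The 4 condensin genes were higher at Day 3, by 1.56 to 4.64. NCAPG, a regulatory subunit of condensin I, was at 9.41, 5.40 and 8.56 CPM in the monolayer, 196, 196 and 177 CPM at Day 3, 265, 286 and 253 CPM at Day 10, 65.1, 46.6 and 31.7 CPM at Day 14 and 37.1, 35.1 and 35.4 CPM at Day 28. NCAPG was at 181, 173 and 148 CPM at Day 7 and at 72.4, 49.3 and 50.7 CPM at Day 21. SMC4, a core ATPase shared by condensin I and II, was at 18.0, 18.4 and 17.2 CPM in the monolayer, 54.0, 50.1 and 54.2 CPM at Day 3, 54.9, 53.6 and 49.5 CPM at Day 10, 19.6, 18.7 and 16.4 CPM at Day 14 and 19.0, 21.9 and 21.1 CPM at Day 28. The Day 14 range of SMC4 spanned that of the monolayer, while that of NCAPG lay above it. SMC4 was 1.56 ± 0.09 higher at Day 3 (adjusted p = 8.83e-17), 0.03 ± 0.09 at Day 14 (adjusted p = 0.792) and 0.21 ± 0.09 at Day 28 (adjusted p = 0.0406). With library size scaling SMC4 was called at Day 14 (adjusted p = 0.0417), and its Day 28 call was lost when 2D replicate 1, 2D replicate 3, Day 28 replicate 2 or Day 28 replicate 3 was left out (adjusted p = 0.0545 to 0.098), with RLE size factors (adjusted p = 0.0525) and with only the groups compared (adjusted p = 0.0886). SMC2, the other ATPase, was 2.45 ± 0.20 higher at Day 3 and 0.80 ± 0.21 higher at Day 28.

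**Figure D2:**
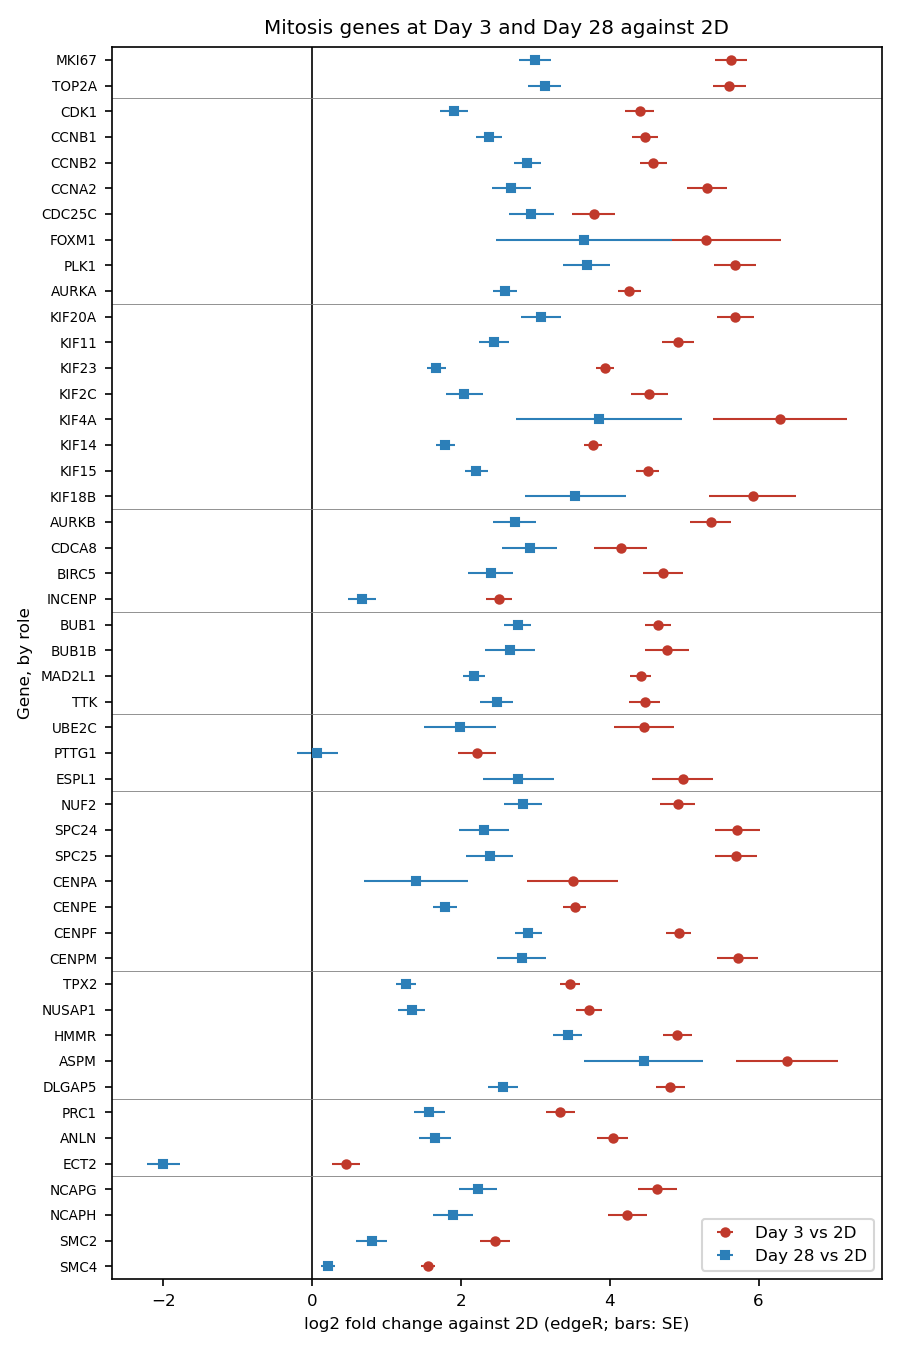
Log2 fold change against the monolayer (x axis) of the 48 tested members (y axis, ordered by role, with lines between role groups) at Day 3 (circles) and Day 28 (squares), with bars of 1 SE. All Day 3 values lie right of 0, every Day 28 value lies left of its Day 3 value, and ECT2 at Day 28 is at -2.00.

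Against the monolayer 47 of 48 tested members were higher at Day 7 (background 40.4%) and 47 at Day 10 (background 40%), with medians of 4.36 and 4.75, and ECT2 was not called on either day. At Day 14, 44 were higher (background 38.7%) and 1 was lower (background 35.7%). At Day 21, 46 were higher (background 39.3%) and 1 was lower (background 35.1%). At Day 28, 45 were higher (background 38.5%) and 1 was lower (background 34.8%). The member called lower on each late day was ECT2. Some late calls of members with few counts or small differences rested on single libraries: SMC2 lost its Day 14 call in 5 of the 6 fits that left out a library, and at Day 21 the calls of FOXM1, CENPA and SMC2 were lost in 4, 3 and 1 of 6. The Day 21 call of FOXM1 was also lost with the replicate number as a block (adjusted p = 0.0516) and with no filter (adjusted p = 0.0926). Medians were 2.64, 2.88 and 2.42 on these days, against 0.06, 0.09 and 0.08 over all genes tested. All 6 comparisons share the 3 monolayer libraries, so they are not independent of each other.

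Within the spheroids each day was compared with the day before it. From Day 3 to Day 7, 5 of 48 members were lower (AURKA, CDCA8, MAD2L1, SMC2 and SMC4) and none was higher, a share close to the background of 8.76% of tested genes called lower. The median was -0.27. The largest of these falls was that of CDCA8, by 0.85 (SE 0.27, adjusted p = 0.0222), and that call was lost in 5 of the 6 fits that left out a library (adjusted p = 0.052 to 0.105), every one but that without Day 3 replicate 3. The SMC2 call was lost in all 6 (adjusted p = 0.0578 to 0.131) and the AURKA call in 2, without Day 3 replicate 1 or Day 7 replicate 3. The count rested on the fit, since 31 members were lower when only these 6 libraries were fitted and 28 had no overlap between the days (background 21.3%). Over all genes, 1081 were called lower in the main fit and 1765 with these 6 libraries alone.

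From Day 7 to Day 10, 23 members rose (background 13.9%) and none fell, with a median of 0.43. CCNA2 rose most of them, by 0.88 ± 0.21 (adjusted p = 0.00494), from 159, 158 and 166 CPM at Day 7, followed by SPC25 at 0.80 ± 0.20. Fitted with these 6 libraries alone, 35 rose, while the genes called higher went from 1718 in the main fit to 1948. All 3 Day 10 libraries lay above all 3 Day 7 libraries in 37 members, against 21.1% of tested genes.

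From Day 10 to Day 14, 47 of 48 members fell and none rose, against a background of 24.3% of tested genes called lower. The median was -2.14, and over all genes tested it was 0.02. The day groups did not overlap in those 47 members (background 27.7%). Of the 48 tested members, 45 reached the filter's level in all 3 Day 14 libraries, and FOXM1, KIF4A and CENPA did not. KIF4A and CENPA are among the 47 and passed through other libraries, those of Day 10 among them. Their falls were thus favoured by the filter. Day 14 means were 22.6% of Day 10 means at the median, from 13.9% for SPC25 to 85.6% for FOXM1. After SPC25 the deepest falls were those of CCNA2, by 2.73 (SE 0.22), and AURKB, by 2.62 (SE 0.21). The smallest called falls were those of CDC25C, by 1.46 (SE 0.23), and SMC4, by 1.53 (SE 0.09). Without Day 14 replicate 3, the low library, 47 members still fell and the median was -1.96.

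From Day 14 to Day 21, 7 members rose (AURKA, TTK, ESPL1, NUSAP1, DLGAP5, ECT2 and SMC4; background 13.9%) and none fell, a share like that of all tested genes. The median was 0.19, and it was 0.03 without either Day 14 replicate 3 or Day 21 replicate 1. In both cases edgeR then called 0 members, with 5 and 6 higher at an unadjusted p under 0.05. From Day 21 to Day 28, 19 members fell (background 14%) and none rose, with a median of -0.43. That count was 5 without Day 21 replicate 1, the high library of its day, and the median was then -0.26. The count was 12 without Day 28 replicate 2 and 7 without Day 28 replicate 3. Over all genes, 1724 were called lower in the main fit and 1196 to 1836 with a library left out.

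From Day 3 to Day 28, 48 of 48 tested members fell (background 30.2%), with a median of -2.22 and no overlap in any of the 48 (background 32.6%). All 48 reached the filter's level in all 3 Day 3 libraries, and 45 did in all 3 Day 28 libraries. FOXM1, KIF4A and CENPA did not at Day 28 and passed through other libraries, so their falls were favoured by the filter. Counts over the 48 in this paragraph include them. Day 28 means were 21.2% of Day 3 means at the median, from 9.49% for SPC24 to 55.2% for CDC25C. The 3 deepest falls were those of SPC24, by 3.40 (SE 0.25), SPC25, by 3.31 (SE 0.23), and CENPM, which binds the centromere, by 2.90. SMC4 fell by 1.35 (SE 0.09), the third smallest. For FOXM1 the fall of 1.64 (SE 0.69, adjusted p = 0.0408) was lost without Day 3 replicate 2, Day 3 replicate 3 or any 1 of the 3 Day 28 libraries (adjusted p = 0.0755 to 0.174), with no filter on low counts (adjusted p = 0.189) and with the replicate number as a block (adjusted p = 0.0542). In the 6 comparisons between spheroid days, 0 members were called against the direction given, by edgeR or DESeq2, and 0 at an unadjusted p under 0.05 by either. Uncalled members could have the other sign, as FOXM1 did from Day 7 to Day 10, at -0.86 ± 0.67 (adjusted p = 0.375). A joint F test over the 6 spheroid days called 48 of 48 members and 76.2% of tested genes.

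**Figure D3:**
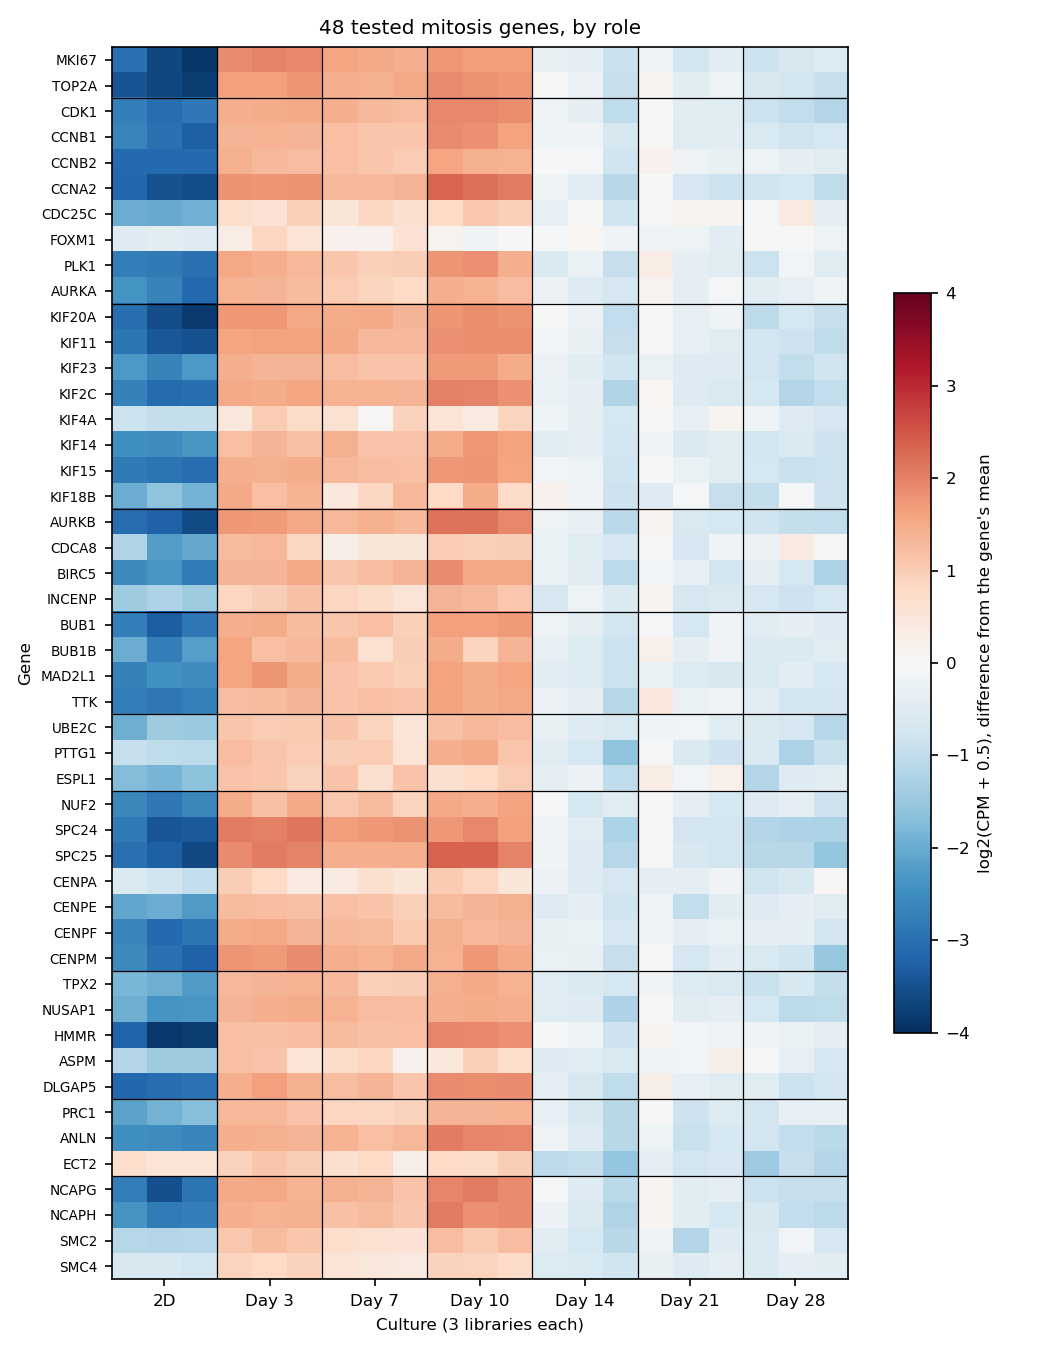
Log2 of CPM + 0.5 of each of the 48 tested members (rows, by role), as the difference from the gene's mean over the 21 libraries (colour), by culture (columns). Days 3 to 10 form a high block, Days 14 to 28 an intermediate block and the monolayer a low block in most rows, while ECT2 is lowest at Days 14 to 28 and its monolayer values lie above its mean.

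Of the 48 tested members 34 had their highest group mean at Day 10 and 14 at Day 3. The lowest mean was in the monolayer for 47 and at Day 14 for ECT2. Among the spheroid days the lowest mean was at Day 28 for 33 members, at Day 14 for 14 and at Day 21 for FOXM1. As a description, the correlation of a member's log2 level with the mean of the other members over the 21 libraries was 0.989 at the median and 0.422 for ECT2. Over the 18 spheroid libraries alone it was 0.978 for ECT2 and lowest for FOXM1, at 0.623, which had 159 counts in all. These libraries share culture groups and scaling, and no test was made of the correlations.

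Partners within a complex were set against each other as the log2 ratio of their CPM with 0.5 added, whose height depends on the probes, so that only its change between cultures is read. The pairs were chosen after their values had been seen, so the ratios are a description. NCAPG to SMC4 went from -1.18 ± 0.43 (SD, n = 3) in the monolayer to 1.84 ± 0.13 at Day 3, 2.34 ± 0.072 at Day 10 and 0.78 ± 0.14 at Day 28. AURKB to INCENP went from -0.99 ± 0.28 in the monolayer to 1.59 ± 0.24 at Day 3 and 0.77 ± 0.097 at Day 28. In both pairs every spheroid library lay above every monolayer library.

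SPC25 was also set against NUF2, a subunit of the outer arm of the same complex. SPC25 to NUF2 was 0.74 ± 0.34 in the monolayer, 1.94 ± 0.25 at Day 3, 2.07 ± 0.29 at Day 10 and 0.67 ± 0.087 at Day 28. With the 0.5 added, the Day 28 ratios lay within the monolayer range, and those of Days 3 and 10 lay above both. NUF2 was at 0.678, 0.484 and 0.683 CPM in the monolayer, near the 0.5 added, which lowers the ratio there. By the fit, which does not add this 0.5, SPC25 was 5.70 and NUF2 4.91 higher at Day 3. At Day 28 they were 2.39 and 2.84 higher. CCNA2 to CCNB2 rose and came back, with 0.46 ± 0.21 in the monolayer, 1.49 ± 0.051 at Day 10 and 0.28 ± 0.15 at Day 28. ANLN to ECT2 was 0.06 ± 0.066 in the monolayer, 3.57 ± 0.12 at Day 3 and 3.39 ± 0.39 at Day 28, with overlapping ranges at Days 3 and 28. CCNB1 to CDK1 ran from -2.34 ± 0.059 at Day 7 to -1.86 ± 0.15 at Day 28, the narrowest span of the pairs named here.

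**Figure D4:**
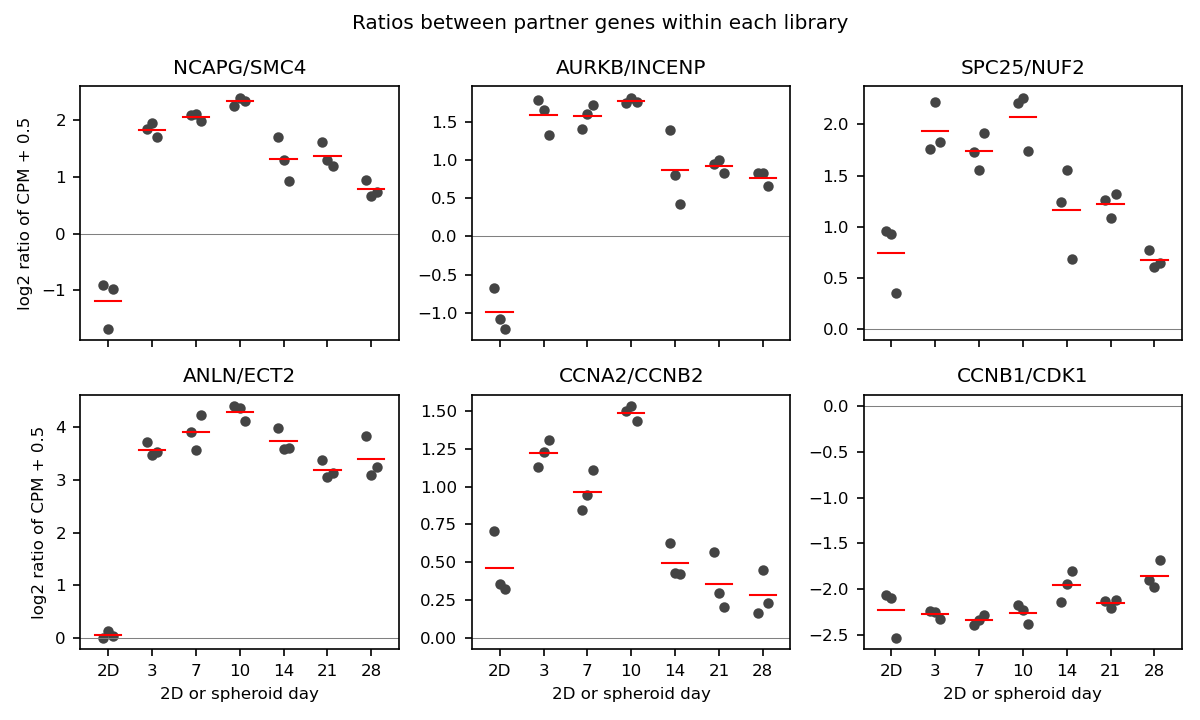
Log2 ratio of the CPM of partner genes with 0.5 added (y axis) by culture (x axis), 1 panel per pair, each with its own y range. Points are libraries and bars are group means of n = 3; the group means of NCAPG to SMC4 span -1.18 to 2.34, and those of CCNB1 to CDK1 span -2.34 to -1.86.

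Other genes of the pathway were read from 9 textbook lists of 144 genes, 140 of them tested, and counts below are for Day 3 against the monolayer unless a day is named. At Day 3 the background was 40.1% of tested genes called higher and 37.8% called lower, and each list is to be read against those shares. Among the tested list genes HJURP, NSL1 and SKA2 had 2, 0 and 2 counts in the monolayer. These passed the filter through their spheroid libraries, so they had to differ from the monolayer to be tested. Counts and medians of the lists include them, and other list genes were not checked for the filter's level in the monolayer. In the other kinetochore and centromere genes 22 of 24 were higher and 1 was lower, with a median of 3.00, or 2.73 with NSL1, at 0 in the monolayer, put at its bound. HJURP, the chaperone of CENPA, had 2 counts in the monolayer and 166 at Day 3, a ratio of 79.8 with an interval of 21.8 to 665. NSL1, a subunit of the MIS12 complex, had 20 counts at Day 3, at least 6.41-fold higher than a floor of 3 counts over the monolayer group. MIS12 itself went the other way, from 153, 153 and 159 CPM to 67.8, 66.3 and 63.7 CPM, a fall of 1.23 (SE 0.07, adjusted p = 7.23e-18). Among the other kinesins and spindle genes 13 of 15 were higher and none lower, with a median of 2.64, led by TACC3, which stabilises kinetochore fibres, at 4.94 ± 0.19 and by the motor KIF18A at 4.34 ± 0.27.

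Of the other checkpoint and entry genes 14 of 18 were higher and 3 lower, with a median of 2.52. SGO1, shugoshin, the guardian of centromeric cohesin, was 5.21 ± 0.33 higher, and PKMYT1, an inhibitory kinase of CDK1, was 4.35 ± 0.26 higher. WEE1, the nuclear kinase that also restrains CDK1, fell from 326, 288 and 304 CPM to 78.1, 77.2 and 82.3 CPM, by 1.95 (SE 0.07), and stayed lower by 2.03 (SE 0.07) at Day 28. ENSA, an inhibitor of the phosphatase that opposes CDK1, was lower by -0.87 ± 0.21.

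The anaphase-promoting complex list had 7 of 16 genes higher, a share near the background of 40.1%, and 2 lower, with a median of 0.24. FBXO5, the interphase inhibitor of the complex, was 1.70 ± 0.12 higher and the subunit ANAPC1 1.52 ± 0.07 higher. CDC16 fell by 0.97 (SE 0.06) and CDC27 by 0.51 (SE 0.08), both of them core subunits. The other cytokinesis genes had 4 of 11 higher (background 40.1%) and 6 lower (background 37.8%), with a median of -0.41, so that CEP55, an abscission organiser (4.50 ± 0.24), and CIT, the citron kinase (4.36 ± 0.18), went against the sign of their list. In cohesin and the other condensin genes 7 of 14 were higher (background 40.1%) and 5 lower (background 37.8%), with a median of 0.15. CDCA5, sororin, which protects cohesin, was 4.69 ± 0.28 higher and the cohesin core subunit SMC1A 3.70 ± 0.23 higher, while the cohesin loader NIPBL fell by 1.13 (SE 0.10) and STAG1 by 0.82 (SE 0.06).

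The DREAM and MuvB genes had 6 of 13 higher and 4 lower, shares near the backgrounds of 40.1% and 37.8%, with a median of 0.19. MYBL2, the activator that joins MuvB in late cell cycle, was at 1.19, 0.713 and 0.586 CPM in the monolayer and 30.9, 30.7 and 36.5 CPM at Day 3, higher by 5.35 ± 0.32, and fell by 4.01 (SE 0.29) from Day 3 to Day 28. RBL1, the pocket protein p107, was 2.75 ± 0.08 higher. LIN37, a MuvB subunit needed for repression, fell by 1.66 (SE 0.10) and DYRK1A, the kinase that promotes DREAM assembly, by 0.79 (SE 0.06). Of the cell cycle exit genes 4 of 9 were higher and 4 lower, again near the background, with a median of 0.14. CDKN2C, the inhibitor p18, was 5.84 ± 0.44 higher, BTG1, an antiproliferative factor, fell by 2.68 (SE 0.32) and CDKN2D, the inhibitor p19, by 2.15 (SE 0.27).

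All 20 S phase genes were higher at Day 3, with a median of 3.11, and RRM2, a subunit of ribonucleotide reductase, was 5.51 ± 0.32 and GINS2, of the replicative helicase, 5.28 ± 0.22 higher. From Day 3 to Day 7, 8 of 20 S phase genes fell (background 8.76%, median -0.35), and from Day 7 to Day 10, 18 of 20 rose (background 13.9%, median 0.76). Of the 48 mitosis genes 5 and 23 did (medians -0.27 and 0.43). At Day 14, 20 of 20 S phase genes were lower than at Day 10 (background 24.3%, median -1.98). From Day 14 to Day 21, 4 of 20 rose (median 0.20), a share near the background of 13.9%. From Day 21 to Day 28, 12 of 20 fell (background 14%, median -0.51), and 20 of 20 were lower at Day 28 than at Day 3 (background 30.2%, median -1.92). No test was made of the difference between the 2 lists. At Day 28, 16 of 20 S phase genes were higher than in the monolayer (background 38.5%) and 1 was lower (background 34.8%). Their median was 1.31, where the mitosis genes had 2.42. From Day 10 to Day 14, 22 of 24 other kinetochore genes, 13 of 15 other kinesins and spindle genes and 16 of 18 other checkpoint genes fell, and 5 of 11 other cytokinesis genes and 6 of 13 DREAM and MuvB genes did, against 24.3% of all tested genes called lower.

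**Figure D5:**
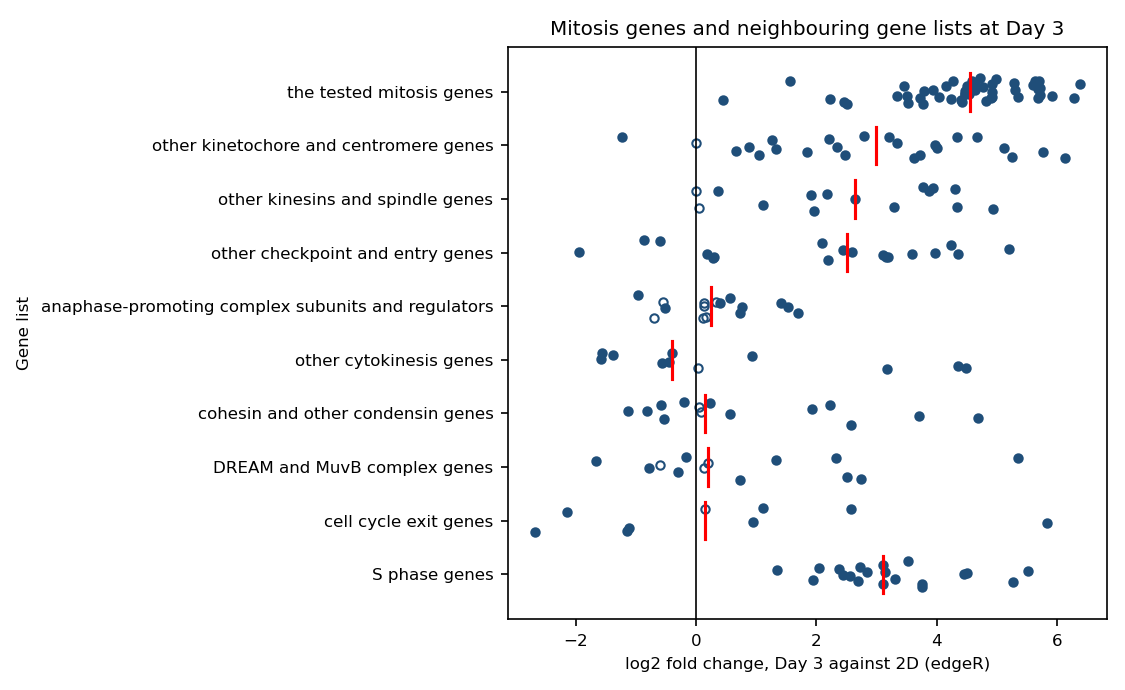
Log2 fold change at Day 3 against the monolayer (x axis) of each tested gene, by list (y axis); filled points are called, open points are not, and red bars are list medians. The mitosis genes have a median of 4.56 and all lie right of 0, the S phase genes have a median of 3.11, and the other cytokinesis genes have a median of -0.41 with both signs among called genes.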

How the data were processed

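RNA of 21 libraries was measured by TempO-Seq. The deposited table of the authors gives unnormalised whole-number counts by symbol. Tools listed in the submitters' processing notes, without roles, are STAR 2.7.10b, fastp 0.23.2, bcl2fastq 2.20.422 and DESeq2 1.38.0, with the build GRCh38.p13. The sources used here do not say how probes of 1 gene were combined. Columns were matched to libraries by the sample descriptions in the labels.

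Genes passing filterByExpr with a minimum count of 10 were kept, 12345 of 19683. All libraries entered 1 robust quasi-likelihood fit with TMM scaling and no covariate (edgeR 4.0.16, R 4.3.3). The 12 comparisons set the spheroid days against the monolayer, neighbouring days against each other and Day 28 against Day 3, and an F test covered the spheroid days jointly. p-values were Benjamini-Hochberg adjusted over all genes tested and called under 0.05, and the SE is the log2 fold change divided by the square root of F. Totals of 18760232 to 43443262 counts give a wide counting error to genes of few counts, and intervals cover that error only. Counts of replicate pairs within a group differed beyond sampling noise (chi-square over its degrees of freedom 5.68 to 29.7), so no library looked deposited more than once within its group. Libraries of different groups were not compared in this way. The edgeR fit was tested on simulated data for Day 3 against the monolayer, and the other steps were not tested in this way.

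The members, lists, comparisons and rules were chosen with earlier results of these data known. Values in every library are given for MKI67, TOP2A, CDK1, CCNB1 and the most counted member of each of the 10 role groups. Also named were the 3 highest and 3 lowest members in 4 comparisons (Day 3 and Day 28 with the monolayer, Day 14 with Day 10, Day 28 with Day 3), any member not called there and, per pathway list, the 2 largest called changes and up to 2 against the sign of the median. Other genes were named after their values were seen. Promoters came from a RefSeq table on GRCh38.p14 that holds 43 of the members. The last 30 bases of 37 of these 43 windows were found in GENCODE 29 transcripts. Alternatives were RLE and library size scaling, no filter, DESeq2 1.42.0, the replicate number as a block, only the groups compared, and leaving out each library.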

Additional observations from a re-analysis of the deposited data

How the results depend on the processing

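Over the 48 tested members, the 12 comparisons and their alternatives, 6541 values kept their direction and their side of the threshold, 146 lost the call, 123 gained one (42 of them for Day 7 against Day 3) and 87 turned sign, 42 of them for Day 21 against Day 14. None of those 87 was called before or after the turn. The 48, 47 and 47 members higher than the monolayer at Days 3, 7 and 10 ranged from 46 to 48 over all alternatives, and the 47 lower at Day 14 than at Day 10 stayed 47 in each. For Day 7 against Day 3, the 5 members lower became 9 with library size scaling, 15 with no filter, 31 with only the groups compared and 2 to 4 with a library left out. In that comparison the 1312 genes higher became 867 to 1231 with a library left out, and the 1081 genes lower became 1637 with library size scaling, 1765 with only the groups compared and 617 to 855 with a library left out. For Day 10 against Day 7, the 23 members higher became 35 with only the groups compared, and the 1664 genes lower became 1088 to 1518 with a library left out. For Day 21 against Day 14, the 7 members higher became 14 with no filter, 0 with only the groups compared and 0 to 8 with a library left out. For Day 28 against Day 21, the 19 members lower became 29 with no filter, 12 with only the groups compared and 5 to 22 with a library left out, and the 1724 genes lower became 988 with only the groups compared. The cause was not tested.

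Among members named for a difference, ECT2 at Day 7 against the monolayer was 0.17 with library size scaling, 0.0059 with no filter, 0.012 with only the groups compared and -0.13 to 0.11 with a library left out. With a library left out, PTTG1 ran from -0.075 to 0.47 at Day 14 and from -0.12 to 0.29 at Day 28, and SMC4 from -0.014 to 0.12 at Day 14. FOXM1 from Day 10 to Day 14 ran from -0.45 to 0.045 in the same way. Library size scaling moved the median of all genes against the monolayer to 0.27 at Day 3 and 0.30 at Day 28, and the share of higher calls from 54.8% to 39.4% (Day 7 against Day 3) and from 41.8% to 55.6% (Day 28 against Day 21).

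Same-numbered libraries did not deviate together: the correlations of their deviations ran from -0.06 to 0.099, and 0 of 12 comparisons had every pair over 0.1. With the replicate number as a block, 48 members were higher at Day 3 than in the monolayer, 47 fell from Day 10 to Day 14, 28 rose from Day 7 to Day 10 and 23 fell from Day 21 to Day 28. Depth limits ASPM, KIF4A and FOXM1, with 1 or 2 monolayer counts. CDC20 and NDC80 had too few counts to be tested, and the part of their probes in that was not tested.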
